A study of Equus caballus with 3 samples.

Results

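Bone marrow (BM)-derived MSCs were 1 of 3 donor-matched cultures of equine mesenchymal stromal cells compared by droplet single-cell RNA sequencing, with adipose tissue (AT)- and peripheral blood (PB)-derived MSCs as the others. Cells were chosen by sample and quality alone. Every barcode of the BM library with 2500 to 15000 unique molecular identifiers (UMIs, each marking 1 captured transcript) and at most 3% of its UMIs on the mitochondrial chromosome was kept, which gave 5580 of 6455 BM barcodes and 5580 of the 16301 cells kept over all 3 sources. The same limits kept 5403 AT- and 5318 PB-derived cells, which serve as the comparison.

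The 3 cultures came from 1 healthy warmblood mare aged 10 years and carried no treatment or transgene. They were grown in culture and captured at passage 2 with 3′ chemistry, so that they hold cultured cells and not each tissue as a whole. Each source was 1 library. A difference between sources is therefore also a difference between libraries, no test and no p-value is given, and the intervals below (exact 95% Poisson for summed UMIs) cover counting error only. The deposited titles name the 3 tissues, whereas the source name attached to every sample gives blood mononuclear cells, and the titles were followed.

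The kept BM-derived cells held 40239295 UMIs, with a median of 6874.5 UMIs and 2184 genes per cell. The other libraries were of like depth, with 39980656 UMIs for AT and 41622445 for PB, and medians of 7291 and 7750 UMIs per cell. Ribosomal protein genes took 18.7% of UMIs in BM-derived MSCs against 24.7% in AT and 21.9% in PB, and the 100 most abundant genes took 41.7% against 49.4% and 47.7%. Of the kept BM barcodes, 89 were also listed in another library and 77 were kept in another one. All 5318 kept PB barcodes were listed in the AT matrix as well, 5279 of them among the AT barcodes under the lower UMI limit and 37 among the AT cells kept.

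Marrow stromal cells line the sinusoids and bone surfaces of the marrow, where they give rise to bone, cartilage and fat cells and hold blood stem cells in place by secreting factors such as the chemokine CXCL12. Their products fall into a few functional classes: fibrillar and network-forming matrix, contractile actin fibres that pull on that matrix, growth factors with their binding proteins and antagonists, and chemokines. Position along the body axis is recorded in stromal cells by transcription factors of the HOX clusters and by other patterning factors, which persist in culture.

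The culture held most of the listed MSC surface markers and few transcripts of blood or endothelial markers. Of 15 listed MSC surface markers 14 were in the matrices and 11 passed the filter on low values. The study itself hardly detected *NT5E* (CD73), a positive marker of human MSCs, in these cells. The member of highest level, *CD63*, a tetraspanin of endosomes, stood at 2239 CPM (UMIs of a gene as a share of all UMIs of the source, scaled to counts per 1e+06) in BM-derived MSCs. The integrin subunit *ITGB1* was at 313 CPM and the GPI-anchored surface protein *THY1* at 531 CPM. Blood cells were all but absent: the common leukocyte antigen *PTPRC*, the B cell gene *MS4A1* and the macrophage receptor *CD163* had 0 UMIs among the 40239295, and of 17 haematopoietic markers 1 passed the filter, the lysosomal protein *CD68* at 11.03 CPM. Summed over the list, haematopoietic markers came to 17.9 CPM in BM, 10.9 in AT and 9.61 in PB. Endothelial markers summed to 1.52 CPM in BM, with 0 UMIs of *PECAM1* and *VWF*, and 5.53 and 2.96 CPM in AT and PB, and none of the 10 passed the filter. Erythroid and megakaryocyte markers summed to 6.83 CPM in BM against 3.00 and 3.41, of which 3.93 CPM was the globin gene *HBA*.

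The question asked of these cells was which genes set BM-derived MSCs apart from both other sources. A level is the CPM of a gene after adding up every kept cell of a source, and differences are of log2(CPM + 1). Of 29927 genes, the 8426 with a mean of at least 5 CPM over the sources were compared. A gene was called gained when BM-derived MSCs were at least 2-fold above the higher of AT and PB on that scale, and lost when they were at least 2-fold below the lower of them. By this rule 199 genes (2.36% of those compared) were gained and 40 (0.475%) were lost. Folds printed for single genes below are plain ratios of CPM, without the added 1. For genes near 0 in a source such folds are much larger than the difference on the scale of the rule. The median gene itself lay 0.24 above AT and 0.20 above PB, so that the scale leaned towards gains. With TMM factors (1.126 for BM, 0.928 for AT and 0.957 for PB) the median gene moved to -0.02 against both, and 116 genes were gained, all of them among the 199, and 73 were lost, among them all 40. These factors lower BM against both other sources, so that they could add no gained gene and remove no lost one. With them the share of gains among all calls was 61.4% in place of 83.3%.

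**Figure D1:**
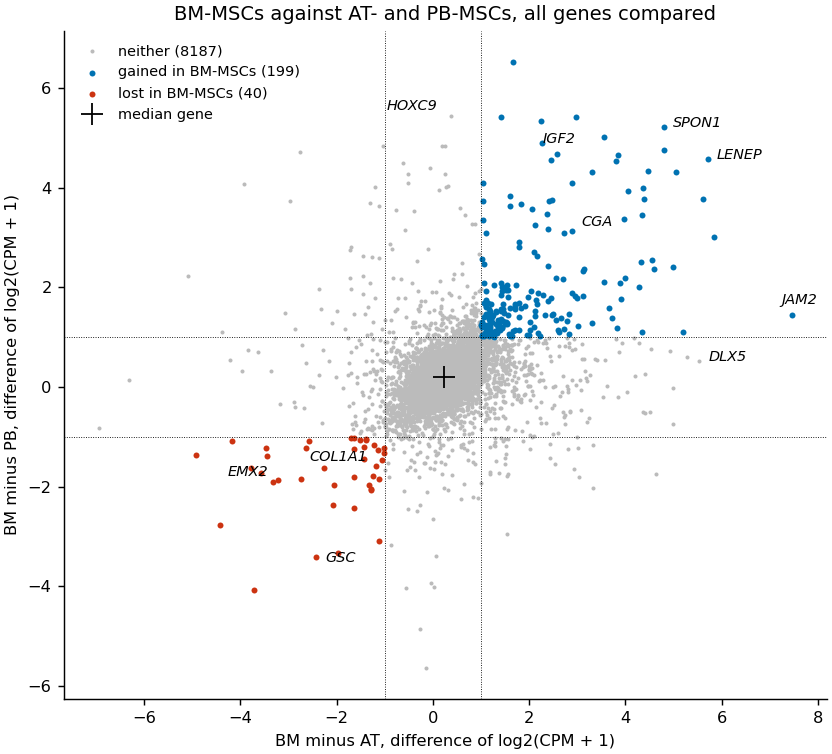
Each point is 1 of the 8426 genes compared, with the difference of log2(CPM + 1) between BM- and AT-derived MSCs on the horizontal axis and between BM- and PB-derived MSCs on the vertical axis. Dotted lines mark 2-fold. The 199 gained genes lie to the upper right and the 40 lost genes to the lower left, and the cross marks the median gene at 0.24 and 0.20.

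The gained genes were mostly of low to moderate level. Their median was 30.7 CPM in BM-derived MSCs, 38 of them reached 100 CPM, and 45 were at least 4-fold above both other sources. Together they took 1.66% of the UMIs of BM-derived MSCs, 0.463% of those of AT and 0.508% of those of PB. The lost genes took 0.452% in BM against 1.19% in AT and 1.11% in PB. Among the gained genes 26 stood on the gene list that the study had published for BM, and not every gene of that list was gained. Among the lost genes 8 stood on the study's published lists, 0 of them on that for BM. The rankings by ratio and by CPM below draw on the 173 gained and 32 lost genes beyond these lists. The marker genes and the gene groups hold genes of these lists too, *JAM2* and *MGLL* among them. Of the 199, 24 carried an Ensembl identifier without a symbol, as did 5 of the 40 lost. Gained genes that were low in both AT and PB passed the filter on low values through BM, which set their difference.

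The 5 genes that mark BM-derived MSCs in this series were chosen on these cells and are given as a description. *JAM2*, a junctional adhesion molecule, was at 1.60 CPM in AT, 456 in BM and 166 in PB. *COL8A1*, a chain of the network-forming type VIII collagen, was at 0.875, 107 and 12.4 CPM, in the same order. *WDR86*, a WD-repeat protein, was at 6.23, 264 and 121 CPM. The glycoprotein hormone alpha subunit *CGA* was at 53.2, 402 and 45.1 CPM, and *TAGLN3*, a neuronal relative of transgelin, at 6.15, 101 and 3.03 CPM. All 5 were highest in BM, and *JAM2* and *WDR86* were well above AT but under 3-fold above PB, while *CGA* and *TAGLN3* were closer to each other in AT and PB.

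Several of the leading gained genes beyond that list encode secreted matrix proteins that are known from bone. *SPON1*, which encodes the matrix glycoprotein F-spondin, had 19 (AT), 1610 (BM) and 4 (PB) UMIs, and its 40.0 CPM in BM (38.1 to 42.0) was 84.2-fold above AT (53.7 to 140). *SMOC1*, a calcium-binding modulator of BMP signalling, had 5, 967 and 10 UMIs, and BM stood 100-fold above PB (54.2 to 209). *IBSP*, the bone sialoprotein of mineralizing matrix, had 0, 1299 and 28 UMIs. The BM level of *IBSP* was at least 430-fold above AT, taken against 3 UMIs in AT, and 48.0-fold above PB (33.0 to 72.5). All 3 genes were close to absent in AT and PB. They passed the filter on low values through BM and were ranked by their ratio, which set that difference. The BM interval was clear of both other sources for all 199 gained genes, so that the rule itself set this.

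Transcription factors were found among both the gained and the lost genes. Of the gained ones *SNAI2*, a repressor of E-cadherin, was at 7.50 CPM in AT, 55.1 in BM and 5.55 in PB, which is 7.35-fold above AT (6.51 to 8.32). *FOXC1*, a forkhead factor needed for the stromal niche of blood stem cells, was at 1.05, 16.9 and 2.57 CPM. Both were lower in AT and in PB. *FOXC1* passed the filter on low values through BM, which set its difference.

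Some of the gained genes with the largest ratios encode secreted proteins. The fetal growth factor *IGF2* was at 18.1 CPM in AT (16.8 to 19.4), 114 in BM (110 to 117) and 3.48 in PB (2.94 to 4.10), or 6.29-fold above AT (5.81 to 6.81). *IGFBP7*, a secreted protein of the IGF-binding family, was at 1.15, 20.4 and 0.0721 CPM. *CXCL12*, which retains blood stem cells in the marrow, was at 2.55 CPM in AT (2.08 to 3.10), 25.4 in BM (23.9 to 27.1) and 0.553 in PB (0.350 to 0.829). BM thus stood 9.97-fold above AT (8.13 to 12.3) and 46.1-fold above PB (30.5 to 73.0). *SRGN*, the core protein of the secretory-granule proteoglycan serglycin that also occurs in blood cells, was at 6.25, 56.1 and 0.336 CPM. In all of these genes the order was BM, then AT, then PB. *IGFBP7*, *CXCL12* and *SRGN* passed the filter on low values through BM, which set their difference.

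Receptors, enzymes and adaptors were also among the 15 gained genes with the largest ratios. *EDNRA*, the endothelin receptor type A, had 12 (AT), 1058 (BM) and 41 (PB) UMIs, and *KCNMB1*, the beta subunit of the large-conductance potassium channel of smooth muscle, had 47, 1184 and 13. *CDO1*, cysteine dioxygenase of taurine synthesis, had 42, 1323 and 51 UMIs, and *DAB1*, an adaptor of reelin signalling, had 15, 1099 and 32. *CRISP3*, a secreted cysteine-rich protein, had 1, 797 and 37. *LENEP*, named for the lens epithelium, had 3, 2225 and 56 UMIs. Its counts are uncertain as to the gene, because reads just downstream of annotated genes were counted too. The RefSeq annotation, which is of another assembly, places *LENEP* beside the cell cycle gene *CKS1B*. Whether its UMIs came from that neighbour was not tested. BM exceeded the higher of the other sources between 22.3-fold for *CRISP3* and 41.1-fold for *LENEP* in these 6 genes, with *KCNMB1* at 25.03-fold, *EDNRA* at 26.7-fold, *CDO1* at 26.8-fold and *DAB1* at 35.5-fold. All 6 passed the filter on low values through BM, which set their difference.

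**Figure D2:**
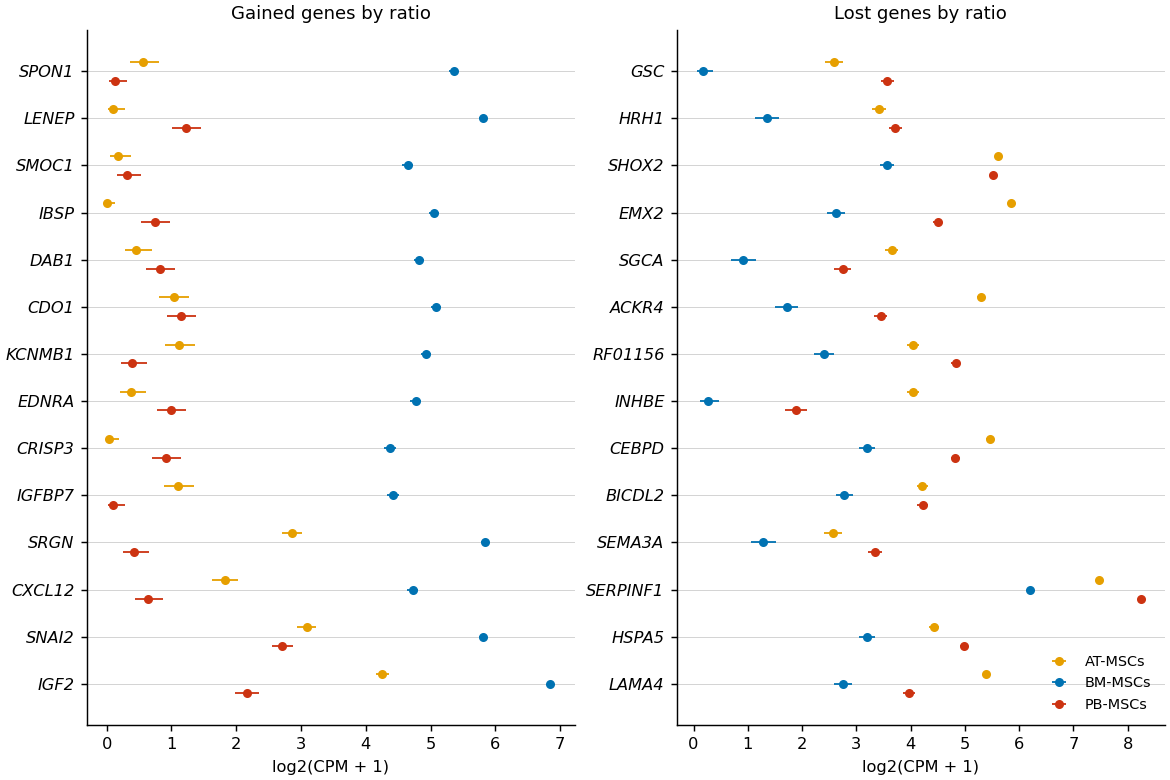
Levels as log2(CPM + 1) of the gained and lost genes named for their ratios in AT- (orange), BM- (blue) and PB-derived MSCs (red), with exact 95% Poisson intervals for counting error. In the left panel BM lies to the right of both other sources for every gene, with most levels of AT and PB below 3 on this scale, and in the right panel it lies to the left of both.

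Ranked by the CPM they added, the gained genes were of other kinds. *ID3*, an inhibitor of differentiation induced by BMP signals, was at 432 CPM in AT, 929 in BM and 302 in PB, and its relative *ID2* was at 60.9, 141 and 52.0 CPM. *VCL*, which encodes the focal adhesion protein vinculin, was at 254, 646 and 304 CPM. *MAP4K4*, a kinase that regulates cell migration, was at 79.4, 215 and 83.1 CPM, *TPP1*, a lysosomal peptidase, at 72.01, 179 and 81.1, and the phospholipase *PLA2G16* at 136, 283 and 139. *CCL26*, the chemokine eotaxin-3, was at 107, 237 and 73.1 CPM, and *YWHAH*, a 14-3-3 adaptor, at 168, 503 and 240. The last 3 of the 10 are genes of dividing cells, namely *STMN1* (202, 567 and 202 CPM), *CKS2* (91.5, 218 and 105 CPM) and *PCNA* (77.5, 177 and 80.1 CPM). These abundant genes lay close to the 2-fold limit, between 2.03-fold for *PLA2G16* and 2.80-fold for *STMN1* over the higher source. With TMM factors 2 of the 10 were still gained, *STMN1* and *MAP4K4*.

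Fewer genes were lost than gained, and several transcription factors were among the 15 with the largest ratios. *GSC*, the homeobox factor goosecoid of craniofacial and limb patterning, had 201 (AT), 5 (BM) and 453 (PB) UMIs, so that AT lay 40.5-fold (17.1 to 126) and PB 87.6-fold (37.3 to 271) above BM. *SHOX2*, a homeobox factor of the proximal limb, was at 47.9 CPM in AT, 10.8 in BM and 45.1 in PB, 4.17-fold lower in BM than in PB (3.75 to 4.64). *EMX2*, a homeobox factor of the forebrain, urogenital tract and limb girdles, was at 56.7, 5.19 and 21.6 CPM. *CEBPD*, an early factor of fat cell formation and inflammation, was at 43.0 CPM in AT (41.04 to 45.1), 8.18 in BM (7.32 to 9.11) and 27.4 in PB (25.8 to 29.0). The patterning factor *FOXS1* was at 68.8, 1.32 and 4.93 CPM.

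Receptors and secreted proteins were lost beside them. *HRH1*, the histamine H1 receptor, had 388 (AT), 62 (BM) and 506 (PB) UMIs, and AT lay 6.30-fold above BM (4.81 to 8.37). *ACKR4*, a scavenging receptor for homeostatic chemokines, was at 38.2, 2.29 and 9.90 CPM, and the sarcoglycan *SGCA* of the muscle membrane complex at 11.6, 0.870 and 5.72. *INHBE*, an activin beta subunit, was at 15.5, 0.199 and 2.71 CPM, with 8 UMIs in BM. *SEMA3A*, a repulsive guidance cue, was at 4.95, 1.44 and 9.15 CPM. *SERPINF1*, the anti-angiogenic pigment epithelium-derived factor that also serves bone mineralization, was at 177, 72.6 and 302 CPM, and *LAMA4*, a laminin chain of vessel basement membranes, at 41.1, 5.74 and 14.8 CPM. The endoplasmic reticulum chaperone *HSPA5* was at 20.6, 8.18 and 30.8, *BICDL2* at 17.6, 5.86 and 17.7, and RF01156 at 15.5, 4.30 and 27.5.

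Ranked by the CPM they removed, the lost genes included matrix genes and others. *COL1A1*, the main chain of type I collagen, had 250226 (AT), 108664 (BM) and 251248 (PB) UMIs, which is 6259, 2700 and 6036 CPM. BM thus held less than AT (AT 2.32-fold above, 2.30 to 2.33) and less than PB (2.24-fold above, 2.22 to 2.25). Fibronectin, *FN1*, was at 1103, 545 and 1276 CPM, and *MFAP2*, a microfibril protein that accompanies fibrillin, at 702, 269 and 566 CPM. Beside the matrix, the calcium-binding *S100A3* was at 631, 313 and 789 CPM, *PCK2*, the mitochondrial phosphoenolpyruvate carboxykinase, at 129, 61.7 and 172, the adhesion receptor *ADGRA2* at 73.9, 26.9 and 63.5, and *GLT8D2*, a glycosyltransferase-like protein, at 106, 31.9 and 65.3. *FN1* and *S100A3* were 2.02-fold above BM in AT, at the edge of the rule. In G1 cells *FN1*, *S100A3*, *PCK2* and *GLT8D2* were no longer past 2-fold.

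Gene groups are given as counts, to be set beside the 2.36% gained and 0.475% lost of all genes compared. Of 28 compared genes of the fibrillar and interstitial matrix, 5 were lost and 2 gained, with median differences of -0.62 against AT and -0.55 against PB beside 0.24 and 0.20 over all genes. The lost ones were *COL1A1*, *FN1*, *MFAP2*, the leucine-rich proteoglycan *ASPN* (303, 22.1 and 389 CPM) and the calcification inhibitor *MGP* (372, 16.4 and 117 CPM). The gained ones were *FMOD*, a small proteoglycan of tendon and cartilage (2.28, 27.6 and 7.11 CPM), and *COL11A1*, a fibrillar collagen of cartilage (10.2, 33.0 and 1.37 CPM). *LUM*, a proteoglycan that regulates fibril width, differed from AT but not by 2-fold from PB, at 1090 CPM in AT, 4095 in BM and 4535 in PB. Of 16 compared network and basement membrane genes 3 were gained, *COL8A1*, *COL8A2* (1.48, 49.1 and 22.2 CPM) and *COL4A1* (16.7, 48.2 and 11.1 CPM), and 1 was lost, *LAMA4*. The medians of that group were -0.17 and 0.19, 5 of the 16 were at least 2-fold above AT and 3 below it (7.9% and 2.03% of all genes), and 2 were gained with TMM factors. Of 26 proteases and inhibitors 5 were gained and 1 lost (2.36% and 0.475% of all genes), and the gained ones included the collagen-cleaving cathepsin *CTSK* of osteoclasts and fibroblasts (62.5, 471 and 126 CPM), the membrane-bound collagenase *MMP14* (22.9, 89.2 and 28.1 CPM) and the serine proteases *PRSS23* (42.3, 211 and 57.8 CPM) and *PRSS35* (1.78, 86.8 and 15.5 CPM). The collagen chaperone *SERPINH1* was at 900, 481 and 860 CPM, short of the 2-fold rule.

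**Figure D3:**
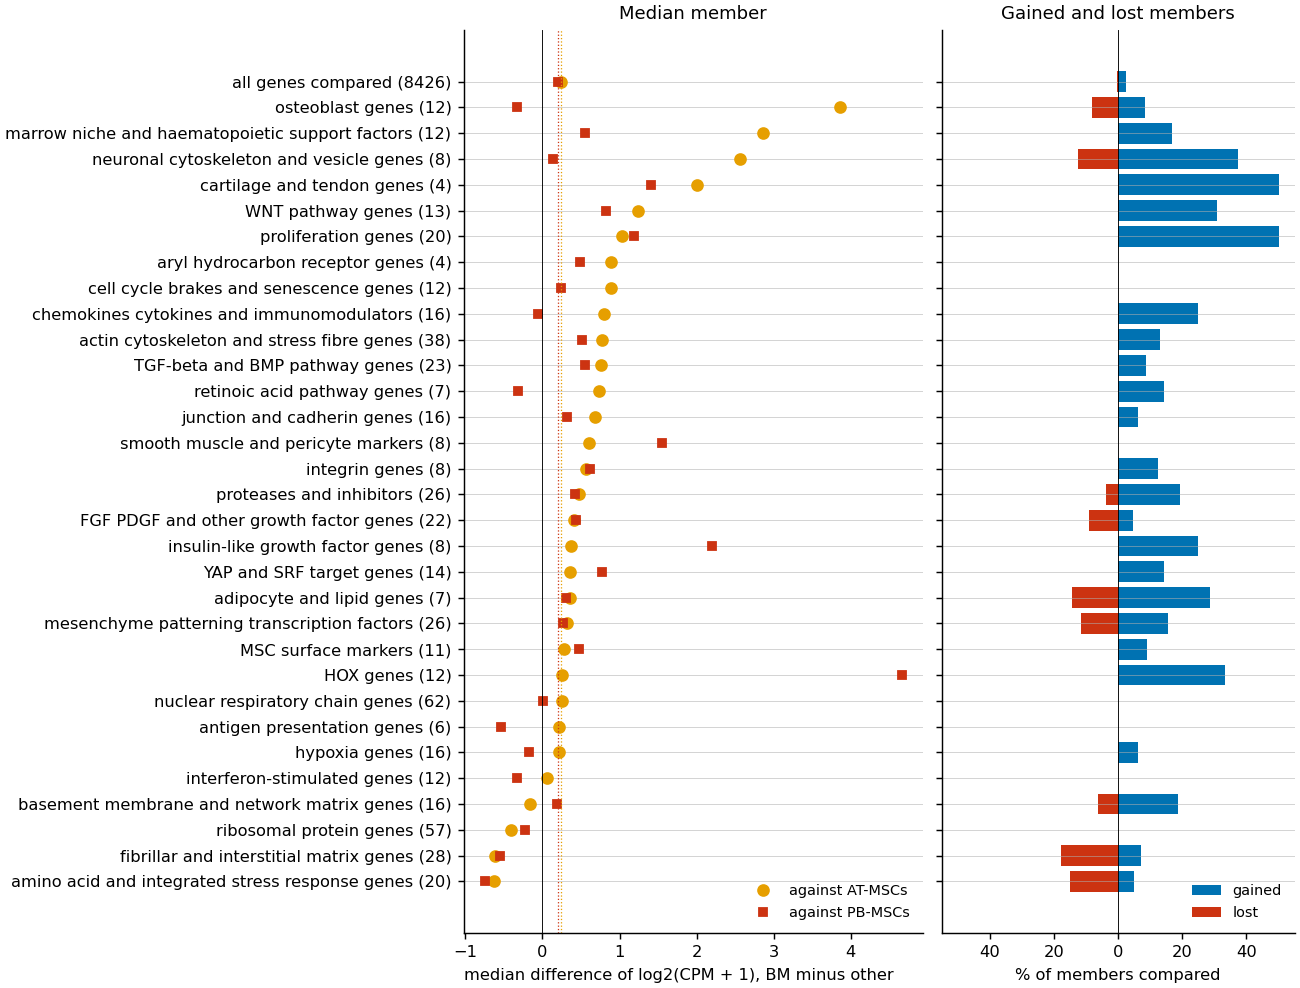
Left, median difference of log2(CPM + 1) between BM-derived MSCs and AT- (circles) or PB-derived MSCs (squares) over the compared members of each gene group, with the number of compared members in parentheses and dotted lines at the medians of all genes. Right, percent of those members that were lost (bars to the left) or gained (bars to the right). Osteoblast genes lie far to the right against AT but not against PB, HOX genes far to the right against PB but not against AT, and amino acid and stress response genes lie to the left against both. With 0 UMIs of most HOX genes in PB, their median against PB depends on the pseudocount.

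Genes of the contractile actin system had higher medians than all genes. Of 38 compared genes of the actin cytoskeleton and stress fibres 5 were gained and 0 lost (2.36% and 0.475% of all genes), and 12 were at least 2-fold above AT and 6 above PB (7.9% and 5.44% of all genes). Their medians were 0.78 and 0.52. With TMM factors the medians were 0.50 and 0.28, and 3 were gained. The gained genes were *PALLD*, an actin-bundling protein (98.0, 559 and 202 CPM), *ENAH*, which elongates filaments (50.5, 231 and 71.7 CPM), the focal adhesion adaptor *FHL2* (40.9, 275 and 122 CPM), *VCL* and *TAGLN3*. Cytoplasmic actin *ACTG1* was at 2960 CPM in AT, 4661 in BM and 4225 in PB. Integrin *ITGA4*, the receptor subunit for VCAM1 and fibronectin, was the 1 of 8 integrin genes that was gained, at 1.68, 52.3 and 8.31 CPM. Of 14 compared targets of the mechanical sensors YAP and SRF 2 were gained, the matricellular factor *CTGF* (11.6, 199 and 42.9 CPM) and *CRIM1* (9.88, 22.4 and 6.66 CPM). With TMM factors, as in G1 cells, *CTGF* was the 1 still gained.

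Secreted regulators of the WNT pathway were among the gains. Of 13 compared WNT pathway genes 4 were gained and 0 lost, beside 2.36% and 0.475% of all genes. They were the secreted frizzled-related antagonists *SFRP1* (1.80, 23.6 and 3.72 CPM) and *SFRP2* (11.7, 43.9 and 2.52 CPM), the antagonist *DKK1* (11.2, 23.6 and 3.12 CPM) and the ligand *WNT5A* (2.05, 12.1 and 4.68 CPM). *SFRP1* and *WNT5A* passed the filter on low values through BM, which set their difference. With TMM factors 2 of the 4 remained past the limit. Of 23 TGF-beta and BMP genes 2 were gained, *ID3* and *ID2*, and with TMM factors neither was. Of 8 insulin-like growth factor genes 2 were gained, *IGF2* and *IGFBP7*, whereas *IGFBP5* was at 258, 16.2 and 0.0240 CPM and so lay between the others. Of 22 further growth factor and guidance genes *SLIT2*, a guidance ligand, was gained (0.325, 30.8 and 5.19 CPM), and *SEMA3A* and *FGF10* (3.83, 1.22 and 17.8 CPM) were lost. *IGFBP7* and *SLIT2* passed the filter on low values through BM, which set their difference.

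Of 12 compared niche and haematopoietic support factors 7 were at least 2-fold above AT and 4 above PB (7.9% and 5.44% of all genes), with medians of 2.86 and 0.55, and 2 were gained (2.36% of all genes), *CXCL12* and *FOXC1*. Members low in the other sources passed the filter on low values through BM or through BM and PB, which set their difference. The receptor *LEPR*, which marks niche stromal cells in the mouse, had 0 UMIs in all 3 sources, and the stem cell factor *KITLG* was at 8.88, 9.37 and 3.53 CPM. The growth factor pleiotrophin, *PTN*, was at 22.8 CPM in AT, 200.03 in BM and 209 in PB. Of 16 chemokines, cytokines and immunomodulators 4 were gained (*CCL26*, described above, was not on that list), namely *CXCL12*, *CXCL14* (1.55, 11.9 and 3.75 CPM), *CXCL16* (34.0, 95.1 and 31.4 CPM) and the stromal cytokine *IL11* (16.0, 50.3 and 16.1 CPM). Of these, *CXCL12* and *CXCL14* passed the filter on low values through BM, which set their difference. The monocyte chemoattractant *CCL2* was shared with PB, at 16.3, 553 and 560 CPM. Interferon-stimulated genes (12 compared) and antigen presentation genes (6 compared) had no gained and no lost member.

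Osteoblast genes differed from AT in most members and from PB in some. Of 12 compared osteoblast genes 8 were at least 2-fold above AT and 1 below it (7.9% and 2.03% of all genes), while 1 was at least 2-fold above PB and 3 below it (5.44% and 1.84% of all genes). The medians were 3.87 and -0.33. Members near 0 in AT passed the filter on low values through BM and PB, so that their difference from AT was set by the filter. The 3 below PB were *ALPL*, *COL1A1* and *IFITM5* (12.5, 13.4 and 35.1 CPM), a membrane protein of osteoblasts. The transcription factor *SP7*, needed for osteoblast formation, had 8 (AT), 953 (BM) and 1413 (PB) UMIs. *DLX5*, a homeobox factor upstream of it, had 12, 2384 and 1707, and *TNFSF11*, the ligand RANKL that drives osteoclast formation, had 42, 1714 and 2549 UMIs. The phosphatase *ALPL* of early mineralization was at 2.88, 96.0 and 326 CPM. BM was 118-fold above AT for *SP7* (59.8 to 275) and 197-fold for *DLX5* (113 to 383), and the ratio to PB was 0.698 (0.642 to 0.758) and 1.44 (1.36 to 1.54). *IBSP* was the 1 osteoblast gene gained over both and *COL1A1* the 1 lost.

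HOX genes split the sources the other way, with BM beside AT. Of 37 HOX genes in the matrices 12 passed the filter, and 4 of these were at least 2-fold above AT and 1 below it (7.9% and 2.03% of all genes). All 12 were at least 2-fold above PB, which the filter fixed for members near 0 in PB, since they passed it through AT and BM alone. PB-derived MSCs held 0 UMIs of 11 of the 12, with 9 UMIs of *HOXA10* as the exception. *HOXC9* had 1297 (AT), 1719 (BM) and 0 (PB) UMIs, and *HOXA7* had 928, 1114 and 0. *HOXC9* in BM was at least 593-fold above PB and *HOXA7* at least 384-fold, against 3 UMIs. The 4 gained members belong to the anterior and middle part of their clusters: *HOXA5* (5.20, 29.0 and 0 CPM), *HOXB6* (7.25, 16.1 and 0 CPM), *HOXB7* (15.2, 42.0 and 0 CPM) and *HOXC8* (7.58, 39.5 and 0 CPM). *HOXA5* and *HOXB6* passed the filter on low values through BM, which partly set their difference from AT as well. *HOXB6* was no longer gained with TMM factors, in G1 cells or without cluster 4 of the clusters described below, and the other 3 gained members were. *HOXC10*, of the posterior part, was at 21.2, 5.69 and 0 CPM and so lower in BM than in AT. The median HOX difference against AT was 0.26, and -0.01 with TMM factors.

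**Figure D4:**
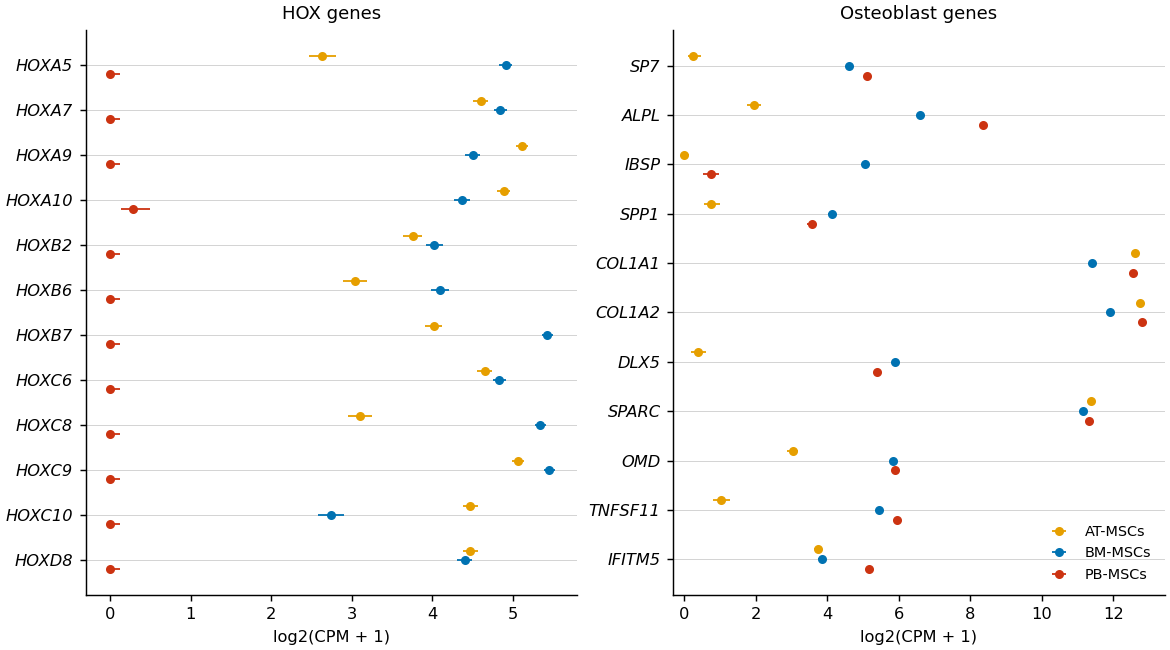
Levels as log2(CPM + 1) of the compared HOX genes and the reported osteoblast genes in AT- (orange), BM- (blue) and PB-derived MSCs (red), with exact 95% Poisson intervals for counting error. HOX genes are at or near 0 in PB and above it in AT and BM, and most osteoblast genes are low in AT and higher in BM and PB.

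These groups are part of a wider pattern over all genes compared. BM-derived MSCs were at least 2-fold above AT in 666 genes and below it in 171 (7.9% and 2.03%), and above PB in 458 and below it in 155 (5.44% and 1.84%). With TMM factors these counts were 450, 292, 310 and 241. The counts that follow are without those factors. With BM and PB within 2-fold of each other, both exceeded AT at least 2-fold in 242 genes and fell short of it in 63. With BM and AT within 2-fold, both exceeded PB in 91 genes and fell short of it in 65. The 5 genes of the first kind with the largest ratios beyond the published lists were *DLX5*, *CA2*, *INSC*, *TNFSF11* and *SP7*. *CA2*, a carbonic anhydrase best known from osteoclasts, was at 0.850, 58.1 and 97.7 CPM, and the polarity adaptor *INSC* at 0.300, 28.8 and 41.1. The 5 of the second kind were *HOXC9*, *HOXC6*, *HOXA7*, *HOXA9* and *HOXD8*. Of 26 compared mesenchymal patterning factors, 4 were gained (among them *HMX2*, *SNAI2* and *FOXC1*) and 3 lost (*EMX2*, *SHOX2* and *FOXS1*), beside 2.36% and 0.475% of all genes. In G1 cells 3 were gained and 4 lost, and without cluster 4 of the clusters described below 3 and 3. *HMX2* was high in that cluster alone.

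Genes of amino acid supply and of the integrated stress response, through which ATF4 answers amino acid shortage, had lower medians than all genes. Of 20 compared genes 3 were lost and 1 gained (0.475% and 2.36% of all genes), with medians of -0.63 against AT and -0.75 against PB. With TMM factors 7 were lost and 0 gained, with medians of -0.90 and -0.97. *ATF5*, a factor downstream of ATF4, was at 408, 36.6 and 97.4 CPM, the stress regulator *NUPR1* at 716, 229 and 546, and the pseudokinase *TRIB3* at 53.3, 23.6 and 58.0. *ATF4* itself was at 841, 573 and 850 CPM. The gained member was the glutamine transporter *SLC38A2*, at 96.0, 207 and 74.9 CPM. In G1 cells alone 1 of the 20 was lost. Ribosomal protein genes (57 compared) were lower by medians of -0.40 and -0.23 with 0 lost, and nuclear genes of the respiratory chain (62 compared) had medians of 0.25 and 0.00.

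Of 7 compared adipocyte and lipid genes 2 were gained and 1, *CEBPD*, was lost (2.36% and 0.475% of all genes). *MGLL*, which splits monoacylglycerol and the endocannabinoid 2-AG, was at 7.98, 209 and 35.1 CPM, and the fatty acid carrier *FABP5* at 28.7, 79.0 and 20.1. By RT-PCR in further donor horses, the study named *MGLL* as an exception to source patterns that were otherwise kept. Its expression differed in Horse 2. The fat cell genes *ADIPOQ* and *LEP* had 6 and 0 UMIs in BM. Of 8 compared genes of the neuronal cytoskeleton and vesicles 3 were gained, *TAGLN3*, the endosomal *NSG1* (58.1, 258 and 26.1 CPM) and the ubiquitin hydrolase *UCHL1* (3.40, 57.4 and 21.4 CPM), and the adhesion molecule *NCAM1* was lost (16.3, 0.572 and 2.64 CPM), though not in G1 cells. *EPAS1*, the hypoxia factor HIF-2 alpha, was the 1 of 16 hypoxia genes gained (5.63, 98.4 and 28.4 CPM), while *HIF1A* was at 129, 149 and 133 CPM.

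Genes of dividing cells were among the gains. By their phase scores 67.5% of BM-derived MSCs were in G1, 17.5% in S and 14.96% in G2M, against 58.8%, 22.8% and 18.4% in AT and 60.8%, 21.1% and 18.1% in PB. These scores are centred within each library and do not compare levels between libraries. The study's own assay of BrdU incorporation, another measure, put proliferation of the donor-matched MSCs highest in AT, then BM, then PB. Of 20 proliferation genes 10 were gained and 0 lost (2.36% and 0.475% of all genes), with medians of 1.03 and 1.19 beside 0.24 and 0.20 over all genes. *CDK1*, the kinase of mitotic entry, was at 19.6, 43.3 and 12.3 CPM, *BIRC5*, the chromosomal passenger survivin, at 40.5, 109 and 46.5, and *CCNA2*, cyclin A, at 19.0, 48.5 and 16.2. The summed list was at 970 CPM in AT, 1917 in BM and 898 in PB, and within cells called S or G2M at 2003, 4419 and 1780 CPM. In cells called G1 it was at 279, 458 and 330 CPM, and 2 of the 20 were gained. With TMM factors 4 of the 20 were gained. Without cluster 4 of the clusters described next none was, but 90.3% of its cells were called S or G2M. It was left out of BM alone while AT and PB kept all their cells, so that a fall of these genes was built in.

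BM-derived MSCs fell into 8 clusters of 1279, 1150, 918, 666, 651, 443, 349 and 124 cells, numbered 0 to 7 by size. The clusters were made from the same cells and are described without a test. The study itself divided its BM-derived MSCs into 7 clusters, and its cluster numbers were not matched to those used here. Clusters 3, 4 and 6 held mostly cells called S or G2M (90.1%, 90.3% and 69.1%). Of the 199 gained genes 93 were above the higher of AT and PB in all 8 clusters, 55 in all but 1, 6 in 6, 4 in 5, 13 in 4, 24 in 3 and 4 in 2. Of the 40 lost genes 31 were below the lower of AT and PB in all 8 clusters and 9 in all but 1. Most gained genes thus held their side in at least 7 of the 8 clusters.

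Cluster 4, with 651 cells and the highest median depth (9468 UMIs), stood apart from the other clusters in several of the genes named above. Its gained genes took 1.60% of UMIs, within the 1.41% to 1.98% of the other clusters, 148 of the 199 were above both other sources in it (152 to 196 in the others), and 44 of the 199 were highest in it. It held 33.2 CPM of *JAM2*, against 380 to 957 CPM in the 7 other clusters, and 9.60 CPM of *COL8A1*. It also held 5.21 CPM of *IGF2*, 1.63 CPM of *CXCL12*, 4.56 CPM of *DLX5* and 1.63 CPM of *SP7*. Of the 55 genes gained in all clusters but 1, cluster 4 was the missing one for 48. Some genes that were lost or rare in the other clusters were higher in it: *EMX2* was at 32.4 CPM there and at most 0.673 in the other 7 clusters, *SHOX2* at 51.9 CPM, *IGFBP5* at 98.4 CPM, and *HMX2*, a homeobox factor of the inner ear and brain, at 84.1 CPM against at most 2.26. Of all *EMX2* UMIs in BM-derived MSCs 95.2% fell in cluster 4. Of the 12 compared HOX genes 8 were highest in cluster 4. The share of all compared genes that were highest in cluster 4 is not given here. Neither these 8 nor the 44 gained genes can thus be set against it. *HOXC8* was at 62.1 CPM in cluster 4 and 23.7 to 46.0 in the others, and *HOXA5* at 29.6 CPM and 21.0 to 36.7. *CGA* was at 513 CPM in cluster 4 and 133 to 653 in the others.

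**Figure D5:**
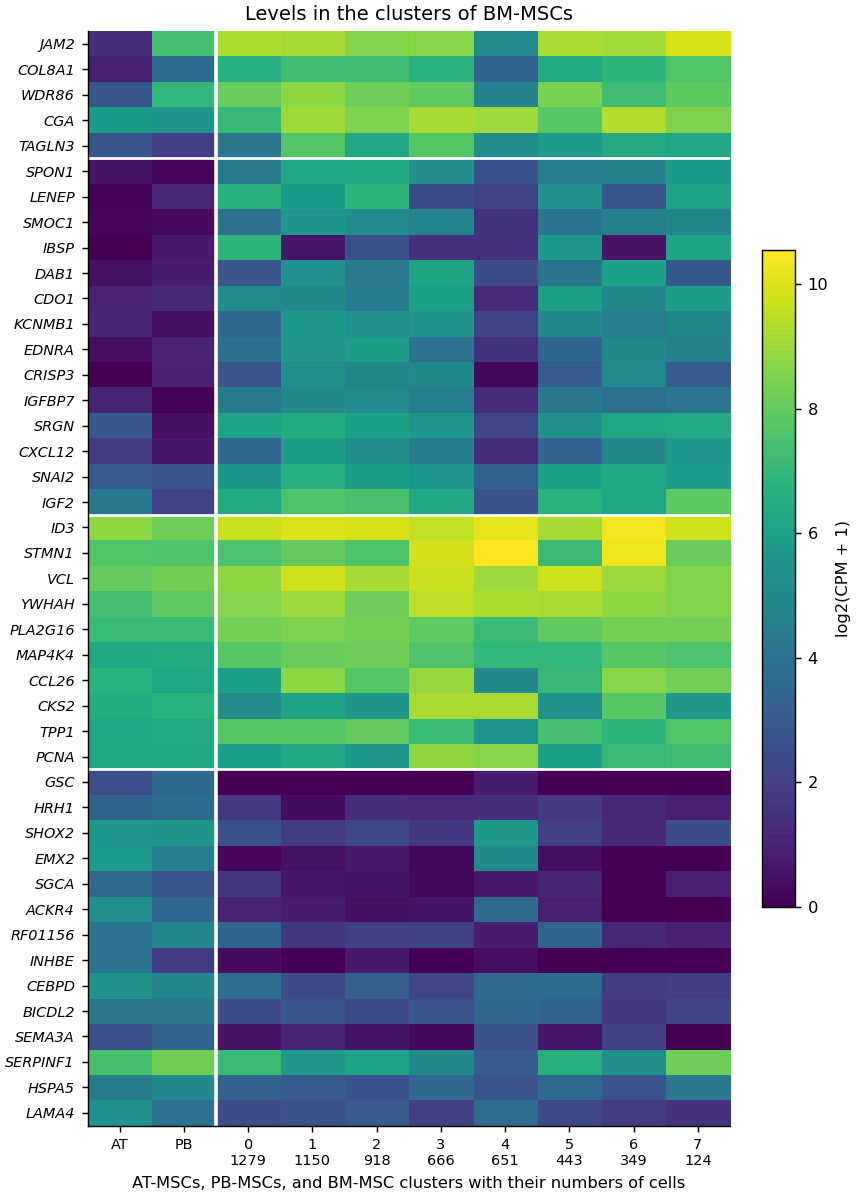
Levels as log2(CPM + 1) in AT- and PB-derived MSCs (left columns) and in the 8 clusters of BM-derived MSCs, with the number of cells under each cluster number. Blocks from top to bottom are the 5 marker genes, the gained genes named for their ratios, the 10 gained genes with the largest CPM difference and the lost genes named for their ratios. Cluster 4 is dark for most genes of the upper blocks but bright for *STMN1*, *CKS2* and *PCNA*, and holds *SHOX2* and *EMX2*.

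Other gained genes were uneven among the remaining clusters. *IBSP* was at 119 CPM in cluster 0, 71.2 in cluster 7 and 49.9 in cluster 5 and at most 5.05 in the rest, and cluster 0 held 76.7% of its UMIs. With every cell thinned to 2500 UMIs, 3.89% of BM-derived cells had a UMI of *IBSP*, against 0.0940% in PB (5.57% and 0.188% before thinning), while AT held 0 UMIs of it. *LENEP* was high in the same cluster 0, at 103 CPM, and below 7 CPM in clusters 3, 4 and 6. *INSC* and *SP7*, which were shared with PB and not gained, were also high in cluster 0, at 81.6 and 56.5 CPM. *CXCL12* and *KCNMB1* were highest in cluster 1, at 58.0 and 51.2 CPM.

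Leaving cluster 4 out of BM-derived MSCs, an alternative chosen after the data were seen, gave 188 gained and 43 lost genes. Of the 199 gained genes 149 were still gained, and of the 40 lost genes 33 were still lost. All 15 gained and all 15 lost genes named by ratio were past 2-fold without it. The gained *STMN1*, *CKS2* and *PCNA* and the lost *FN1*, *PCK2* and *GLT8D2* were not. AT and PB kept all their cells, and cluster 4 held mostly cells called S or G2M. Lower levels of *STMN1*, *CKS2* and *PCNA* were therefore built into this alternative. In cells called G1, 203 genes were gained (2.41%) and 36 lost (0.427%), and 156 of the 199 and 30 of the 40 were among them. Counting TMM factors as well, 101 of the 199 gained and 29 of the 40 lost genes passed under all 3 alternatives. TMM factors lower BM against both other sources, so that they could not remove a lost call.

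Barcodes on either side of the limits held like shares of these sets. In the 129 BM barcodes with 2000 to 2500 UMIs the gained genes took 1.63% of UMIs and the lost genes 0.428%, and in the 163 with 2500 to 3000 UMIs 1.63% and 0.427%. In the 142 barcodes just past the mitochondrial limit, at 3 to 4%, they took 1.64% and 0.474%, and in the 2549 just inside it, at 2 to 3%, 1.70% and 0.437%. The 2 leading gained genes without a symbol were ENSECAG00000031731 (1.75, 31.4 and 0 CPM), of which 96.4% of UMIs fell in cluster 4, and ENSECAG00000010747 (3.98, 25.4 and 0.985 CPM). Their lost counterparts were ENSECAG00000037901 (13.1, 4.65 and 21.0 CPM) and ENSECAG00000008946 (8.63, 3.26 and 11.8 CPM).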

How the data were processed

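MSCs of 3 tissues of 1 mare were profiled with 10x Genomics 3′ version 2 chemistry, 1 library per tissue. Per the labels and the study's methods, the authors used CellRanger and EquCab3.0 and counted UMIs with ESAT, which also takes reads a short way past the annotated 3′ end. The deposited values are whole-number counts per gene and barcode, not normalized. Columns of per-sample values left unused numbered 0. Cells kept had 2500 to 15000 UMIs, of which no more than 3% were mitochondrial. With 1 library per source no count model was fitted, and genes with a mean of at least 5 CPM were called by fold on log2(CPM + 1). A fold over a sum of 0 is a lower bound, set by a floor of 3 UMIs per source (0.0750, 0.0746 and 0.0721 CPM for AT, BM and PB). Intervals are exact 95% Poisson, and those of ratios come from the exact binomial split of both counts (SciPy 1.17.1).

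BM cells were clustered in Seurat 5.3.0 after sctransform 0.4.2 (R 4.3.3, 3000 variable genes, 23 principal components, 20 neighbours, resolution 0.6), with mitochondrial percent and the cell cycle difference regressed out. Phases used 39 S and 50 G2M genes. Alternatives used edgeR 4.0.16 (TMM), DESeq2 1.42.0 (size factors) and Scrublet in Scanpy 1.11.5. The authors called putative multiplets with DoubletDetection and left them out of their own analyses. Whether multiplets had been removed before deposit is not known, and none were removed here except in the Scrublet alternative.

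Cells, gene groups, the named-gene rule and alternatives were chosen with earlier results of these data known. Named genes are the 5 markers, the 15 gained and 15 lost genes with the largest ratios, the 10 of each with the largest CPM difference, 5 shared with each other source, and in each gene group up to 4 gained, up to 4 lost and the 2 of highest level in BM, leaving genes on the study's own lists out of the rankings. A few of the genes so chosen are not reported here. Other members of a group, named for their level or role, and *IGFBP5*, *LUM*, *KITLG*, *LEPR*, *CCL2*, *THY1*, *SERPINH1*, *HOXC10* and *HIF1A*, were chosen after their values were seen. Ensembl identifiers lacking a symbol matched no entry of the RefSeq table, which is of another assembly, and no sequences are shown.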

Additional observations from a re-analysis of the deposited data

How the results depend on the processing

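No paired analysis was possible because each source was 1 library of 1 mare. The main counts were 199 genes gained and 40 lost, 666 higher and 171 lower than AT, and 458 higher and 155 lower than PB. Scaling moved the balance. With TMM factors there were 116 gained, 73 lost, 292 lower than AT and 241 lower than PB, and with DESeq2 size factors 120, 72, 289 and 236. Centring on the median gene, chosen after the data were seen, gave 118, 71 and 296 lower than AT. Centring removes the shift of the median gene by construction. With TMM factors the median gene lay at -0.02 against both sources, and the cause of the moved counts was not tested. A pseudocount of 25 CPM left 45 gained, 7 lost, 151 higher and 57 lower than AT, and 91 higher and 36 lower than PB. Counts also follow the number of genes compared. Without a filter on low values they were 344 gained, 1041 higher and 339 lower than AT, and 745 higher and 292 lower than PB. With a mean of at least 20 CPM they were 83 gained, 23 lost, 305 higher and 97 lower than AT, and 189 higher and 77 lower than PB. With a UMI in at least 25% of cells of a source they were 65 and 22, 235 and 84, and 139 and 67, and at 4-fold 45 and 4, 198 and 47, and 113 and 29, in the same order. Thinning, the other cell filters, Scrublet scores, G1 cells, single-cell means, omission of mitochondrial and ribosomal genes, and, chosen after the data were seen, omission of barcodes kept more than once or of cluster 4 kept all 6 counts within 1.5-fold. Of the 6155 AT barcodes under the lower UMI limit, 5279 were also kept in PB. A lower limit of 500 UMIs could let such barcodes into AT, so that it is no clean check of the comparison with AT. Leaving out all barcodes listed in another library left 5491 BM and 0 PB cells, so that only the comparison with AT could be made. Of 66 named genes 1 changed sign, ENSECAG00000031731, at -0.23 without cluster 4. Calls were lost more widely: 30 of the 66 stayed past 2-fold with a pseudocount of 25 CPM and 57 with TMM factors. With the former, 10 of the 15 gained genes named by ratio stayed past it (*CXCL12*, *SMOC1*, *EDNRA*, *IGFBP7* and *CRISP3* did not) and 2 of the 15 lost genes did. With TMM factors the marker *WDR86* stood at 0.88 over PB on the log2 scale and 2 of the 10 gained genes named by CPM stayed past 2-fold. The share of gained genes above both others in every cluster was 46.7%, and 48.2% and 46.7% at resolutions of 0.4 and 0.8. With 1 library per source, variation between animals, cultures and captures was not measured, and source and library cannot be told apart.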

Other observations

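Of 12 compared genes of a list of cell cycle inhibitors, D-type cyclins and senescence genes 5 were at least 2-fold above AT, 1 was below it and 2 were above PB (7.9%, 2.03% and 5.44% of all genes), and none was gained or lost. The 5 were the inhibitors *CDKN2A*, *CDKN2B* and *CDKN1A* and the cyclins *CCND1* and *CCND3*, which promote the cycle, and the 1 below AT was the cyclin *CCND2*. *CDKN2A*, which encodes the p16 and ARF inhibitors, was at 7.10 CPM in AT, 72.96 in BM and 64.5 in PB, and *CDKN1A*, the inhibitor p21, at 34.3, 96.9 and 103 CPM. Cyclin D1, *CCND1*, was at 47.1, 338 and 182 CPM. *CYP1B1*, a target of the aryl hydrocarbon receptor, was at 39.99, 597 and 368 CPM. In the retinoic acid group *RARRES1*, a retinoid-induced carboxypeptidase inhibitor, was gained at 139, 481 and 63.1 CPM, while the binding protein *CRABP2* was at 115, 191 and 528. Like *MGLL*, *CRABP2* was an exception to the source patterns that the study followed by RT-PCR in further horses. It differed in Horse 2.

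Of 8 compared smooth muscle and pericyte genes 5 were at least 2-fold higher and 1 lower in BM than in PB (5.44% and 1.84% of all genes), and 1 was higher and 2 lower than in AT (7.9% and 2.03%), with 0 gained or lost. The intermediate filament *DES* was at 204, 5.04 and 0.288 CPM, the contractile regulator *CNN1* at 106, 162 and 33.1, and smooth muscle actin *ACTA2* at 721, 763 and 613. *ACTA2* was uneven within BM-derived MSCs, from 413 CPM in cluster 0 to 1630 in cluster 7. *MCAM*, the pericyte and MSC surface protein CD146, was the 1 of 11 surface markers gained (2.36% of all genes), at 3.50, 17.7 and 0.577 CPM. It passed the filter on low values through BM, which set its difference. The cartilage factor *SOX9* was at 1.58, 12.7 and 5.89 CPM.

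Barcodes that the limits removed from the BM library had values of their own. The 183 above 15000 UMIs held 189 CPM of *JAM2* and 51.9 CPM of *HMX2*, against 456 and 13.8 CPM in the kept cells. The 166 removed for mitochondrial UMIs held 347 CPM of *JAM2*, and the 526 under 2500 UMIs held 425 CPM.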
